A study of Bos taurus with 12 samples.

Results

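The genes described here are 9 components of the epithelial tight junction, chosen by symbol: the claudins CLDN1, CLDN3, CLDN4, CLDN7 and CLDN8, occludin (OCLN), junctional adhesion molecule A (F11R), and the scaffold proteins TJP1 and TJP3, also known as ZO-1 and ZO-3. Their probes were those whose RefSeq transcript belonged to 1 of these symbols. Of the 9 genes, 8 had at least 1 probe, among 12787 genes with a probe in all, and together they had 16 probes. No probe of TJP1 was found by this rule, so its expression was not analysed here. After the filter on dim probes, 13 probes of 7 genes were tested, among 7932 tested genes. CLDN1 did not pass the filter, and its values are given without a test.

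Mammary gland (MG) RNA of lactating Holstein cows was measured on one-colour (Cy3) bovine oligonucleotide arrays, 1 array per biopsy. The CONT group held the biopsies of 6 cows on day 0, when feed was offered ad libitum, and the REST group held biopsies of the same 6 cows on day 6 of a feed restriction to 50% of their net energy requirement for lactation. Successive biopsies alternated between the rear glands of the udder, and no cow was biopsied on day 6 without restriction. Restriction, time and gland therefore cannot be told apart. The study's methods exclude a Holstein cow with mastitis, and whether any of the 6 cows measured here is that cow is not given in the sources used here. Normalized signal is given as log2 units relative to the 75th percentile of the array. A change is REST minus CONT on this scale, estimated with limma with the cow as a block, and a probe was called when its Benjamini-Hochberg adjusted p over all 19406 tested probes was below 0.1.

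Tight junctions form a belt near the apical surface of epithelial cells. Claudins build the strands that set which ions pass between cells, occludin and F11R are further membrane proteins of the junction, and TJP1 and TJP3 tie them to the actin cytoskeleton. In the lactating MG they seal the alveolar lumen, so that lactose and potassium stay in milk and sodium stays out, and they become leaky with milk stasis, mastitis and involution.

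The arrays lay on 3 slides of 4, and the pair of arrays of each cow was never split. Slide 1 held cows 1 and 2, slide 2 held cows 3 and 4, and slide 3 held cows 5 and 6. Slide 3 was dimmer, with a 75th percentile of 73.2 to 117 intensity units against 252 to 390.0 on slides 1 and 2. On slide 3, 41.9 to 48.0% of spots were well above background, against 61.8 to 67.9% on the other two. The unscaled 75th percentile of REST exceeded that of CONT in 6 of 6 cows. Luminal epithelial markers were present: 8 of 10 were tested (KRT7, KRT8, KRT18, KRT19, EPCAM, ELF5, MUC1 and LALBA), each well above background on all 12 arrays, while CDH1 did not pass the filter and CSN2 had no probe by symbol. Of all tested probes, 3105 (16.0%) were called, 1402 higher and 1703 lower in REST. Counted by 1 probe per gene, 16.2% of genes were called, 6.95% higher and 9.27% lower.

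OCLN was the single member called in the paired comparison. Its signal was higher in REST in 6 of 6 cows, by 0.59 log2 units or 1.51-fold. It passed the filter on dim probes through REST alone, the group where its signal was higher, and it was not tested when all 12 arrays had to be above background. The call was also lost without the cow as a block (adjusted p = 0.187), with the methods' t-test (0.256), and with normexp background correction and the 75th percentile shift (0.270). The other 6 tested members, CLDN3, CLDN4, CLDN7, CLDN8, TJP3 and F11R, were not called, with changes between -0.33 and 0.08. Of 13 tested member probes, 2 were called, both of OCLN and both higher, beside the 16.0% of all tested probes. By gene, 1 of 7 was called, beside 16.2% of all tested genes, so the share of members called was close to that of the array as a whole. The median change of the 7 tested members was -0.05, beside -0.01 over all tested genes.

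**Figure D1:**
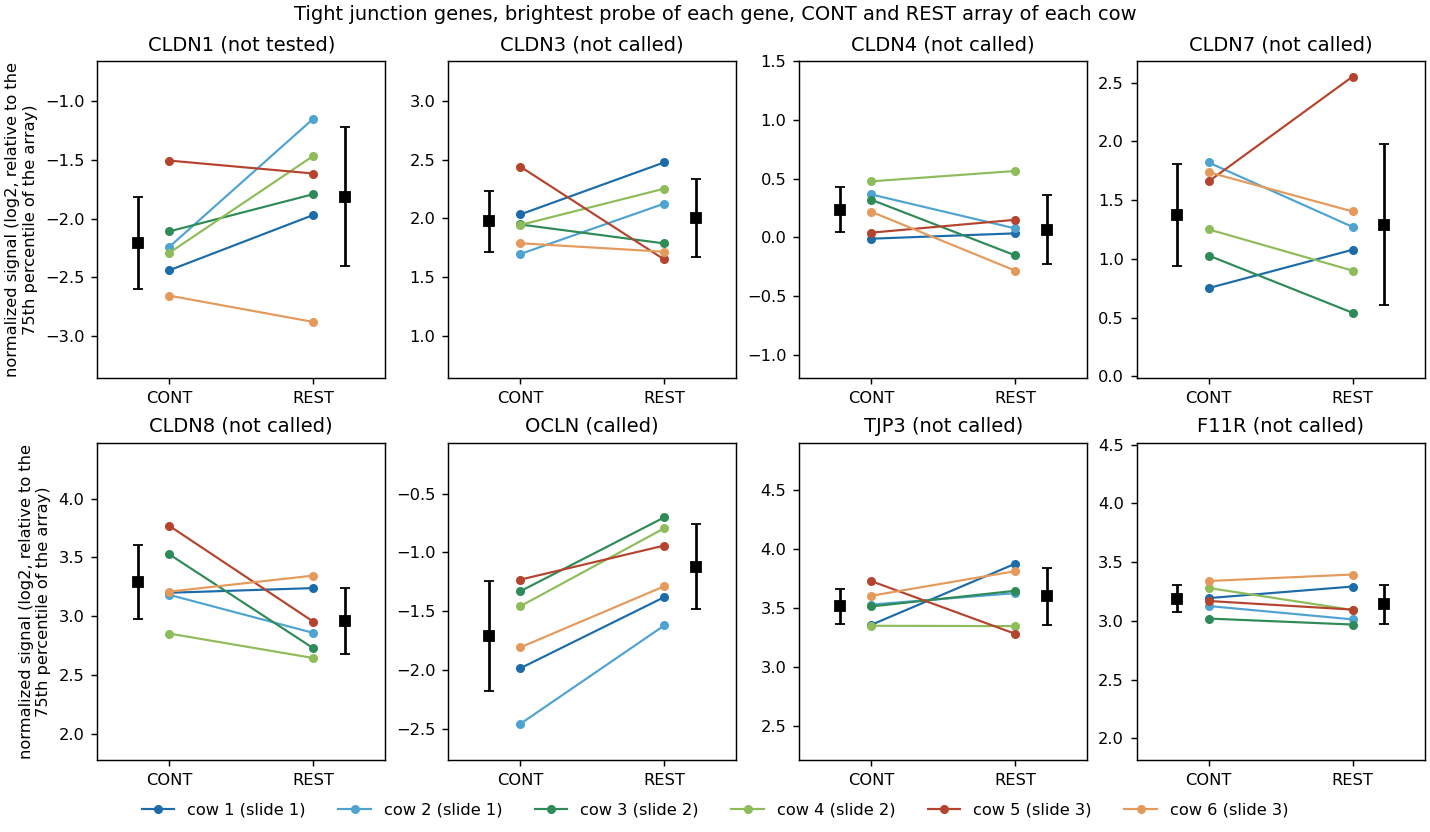
Normalized signal (log2, relative to the 75th percentile of the array) of the brightest probe of each of 8 tight junction genes on the CONT and REST array of each cow. Lines join the arrays of 1 cow, black squares and bars are the mean ± SD of 6 arrays, and every panel spans the same number of log2 units. All 6 lines of OCLN run upwards, while those of CLDN3, CLDN4, CLDN7, CLDN8, TJP3 and F11R run both ways.

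CLDN1 encodes a barrier-forming claudin found in most epithelia. Its brighter probe read -2.44, -2.24, -2.11, -2.29, -1.51 and -2.65 in CONT, from cow 1 to cow 6, and -1.97, -1.15, -1.79, -1.47, -1.62 and -2.88 in REST. The REST value was the higher in cows 1 to 4 and the lower in cows 5 and 6, which are the cows of the dim slide, and the groups overlapped. Means were -2.21 ± 0.39 in CONT and -1.81 ± 0.59 in REST (SD, n = 6). In cow 6 neither array was well above background, so 5 of 6 arrays of each group were and the probe was not tested. With no filter on dim probes, its change of 0.39 had an adjusted p of 0.252 (limma). The change was 0.26 without cow 2, and 0.04 and 0.13 with normexp correction and the 75th percentile shift or quantile normalization. Within slides the change was 0.78, 0.57 and -0.17 for slides 1, 2 and 3. The dimmer probe of CLDN1 was higher in REST in 6 of 6 cows, by 0.89, but was well above background on 2 of 6 CONT and 4 of 6 REST arrays.

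CLDN3 encodes a sealing claudin of the epithelial barrier. It read 2.03, 1.70, 1.95, 1.94, 2.44 and 1.79 in CONT and 2.48, 2.12, 1.79, 2.25, 1.65 and 1.72 in REST, cows 1 to 6. Values were higher in cows 1, 2 and 4 and lower in cows 3, 5 and 6, so the groups covered nearly the same range. Means were 1.97 ± 0.26 and 2.0 ± 0.33 (SD, n = 6), a change of 0.03 ± 0.16 (SE; limma adjusted p = 0.933) with a 95% interval of -0.34 to 0.39. The second probe, with a change of 0.07, followed the first across the 12 arrays (r = 0.98 with group means kept, a description). Cow 5 carried the largest single difference, -0.79, and without this cow the change was 0.19 (adjusted p = 0.320). Within slides 1, 2 and 3 the change was 0.44, 0.07 and -0.43.

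CLDN4 encodes a claudin that restricts sodium passage in several epithelia, and its probes disagreed. The brighter probe read -0.01, 0.37, 0.32, 0.48, 0.04 and 0.22 in CONT and 0.04, 0.08, -0.15, 0.57, 0.15 and -0.28 in REST, higher in 3 cows and lower in 3. Its change was -0.17 ± 0.11 (SE; limma adjusted p = 0.352; 95% interval -0.42 to 0.08). The dimmer probe had a change of 0.35 ± 0.14 (SE; adjusted p = 0.156), higher in REST in 5 of 6 cows. It gave a more positive difference than the brighter probe in 6 of 6 cows, and across arrays the pair correlated at r = 0.41 (12 arrays, group means kept). The within-cow differences of the pair correlated at r = 0.69. Averaging both probes turned the sign, to 0.09 (adjusted p = 0.658). The dimmer probe was called without cow 6 (0.47, adjusted p = 0.0691) and without the cows of slide 3 (0.55, adjusted p = 0.0522). A direction for CLDN4 is therefore not given.

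CLDN7, a claudin of the lateral membrane as well as the junction, had 1 probe. It read 0.75, 1.82, 1.03, 1.25, 1.66 and 1.74 in CONT and 1.08, 1.27, 0.54, 0.90, 2.55 and 1.40 in REST. Cow 5 had the highest REST value and the largest difference, 0.89, while cows 2, 3, 4 and 6 differed by -0.33 to -0.55. The change was -0.08 ± 0.19 (SE; limma adjusted p = 0.805), with a 95% interval of -0.51 to 0.34. Without cow 5 it was -0.28 (adjusted p = 0.211), and without cow 2 it was 0.01. The change within slides 1, 2 and 3 was -0.11, -0.42 and 0.28. On slide 3 the sign came from cow 5 (0.89), as cow 6 differed by -0.33.

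CLDN8 encodes a claudin known as a sodium barrier in the distal nephron and colon. Its single probe read 3.20, 3.18, 3.53, 2.85, 3.77 and 3.21 in CONT and 3.24, 2.86, 2.73, 2.64, 2.95 and 3.34 in REST. The REST value was the lower in cows 2 to 5 and the higher in cows 1 and 6, and the groups overlapped. Means were 3.29 ± 0.32 and 2.96 ± 0.28 (SD, n = 6). The change of -0.33 ± 0.14 (SE) had an unadjusted limma p of 0.047 and an adjusted p of 0.176, and so was not called. Its 95% interval, -0.65 to -0.01, is unadjusted. Within slides it was -0.14, -0.50 and -0.34, and with 1 cow left out it lay between -0.42 and -0.23 with adjusted p between 0.116 and 0.347.

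OCLN encodes occludin, a tetraspan membrane protein that sits in the strands beside the claudins and takes part in their regulation. Its brightest probe read -1.99, -2.46, -1.33, -1.46, -1.23 and -1.81 in CONT and -1.38, -1.62, -0.70, -0.79, -0.94 and -1.29 in REST, cows 1 to 6. Every cow was higher in REST, by 0.29 in cow 5 up to 0.84 in cow 2. The groups still overlapped, as the cows differed among themselves in both periods. Means were -1.71 ± 0.47 and -1.12 ± 0.36 (SD, n = 6), and the change was 0.59 ± 0.09 (SE; limma adjusted p = 0.0104; 95% interval 0.39 to 0.79).

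The second probe of OCLN read -2.53, -2.82, -1.94, -1.97, -1.80 and -2.23 in CONT and -1.76, -2.04, -1.09, -1.16, -1.27 and -1.85 in REST. It was higher in REST in 6 of 6 cows as well, by 0.69 ± 0.09 (SE; limma adjusted p = 0.00726). Both probes varied nearly alike over the 12 arrays (r = 0.98, group means kept), and their within-cow differences correlated at r = 0.64. The third OCLN probe was well above background on 1 of 6 arrays in each group and was not tested. It was higher in REST in 4 of 6 cows, with a mean difference of 0.49.

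The CONT array of cow 6 was not well above background for either tested OCLN probe, so OCLN entered the test through the REST group, where its signal was higher. Without cow 6, where every remaining array was well above background, the change was 0.61 (adjusted p = 0.0236). Leaving out any 1 cow gave 0.54 to 0.65, with adjusted p between 0.0108 and 0.0453. Within slides 1, 2 and 3 the change was 0.72, 0.65 and 0.40. With no block the adjusted p was 0.187, in a fit that called 4.31% of all probes, and with the slide as a block in place of the cow it was 0.0312. Its size was smaller with normexp correction, which started from the median spot signals and added an offset of 50. With the 75th percentile shift it was then 0.14 and not called (adjusted p = 0.270), and with quantile normalization 0.24 and called (adjusted p = 0.0417). OCLN was a dim probe. The dimmest of 5 equal bins of tested probes by mean signal had a median change of 0.05, with 57.1% of probes higher in REST, and the brightest bin had -0.03, with 44.9% higher. Among 1980 tested probes within 0.25 of the mean signal of OCLN, the median change was 0.01 and 7.63% were called higher. The part of array brightness in the OCLN result was not tested.

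**Figure D2:**
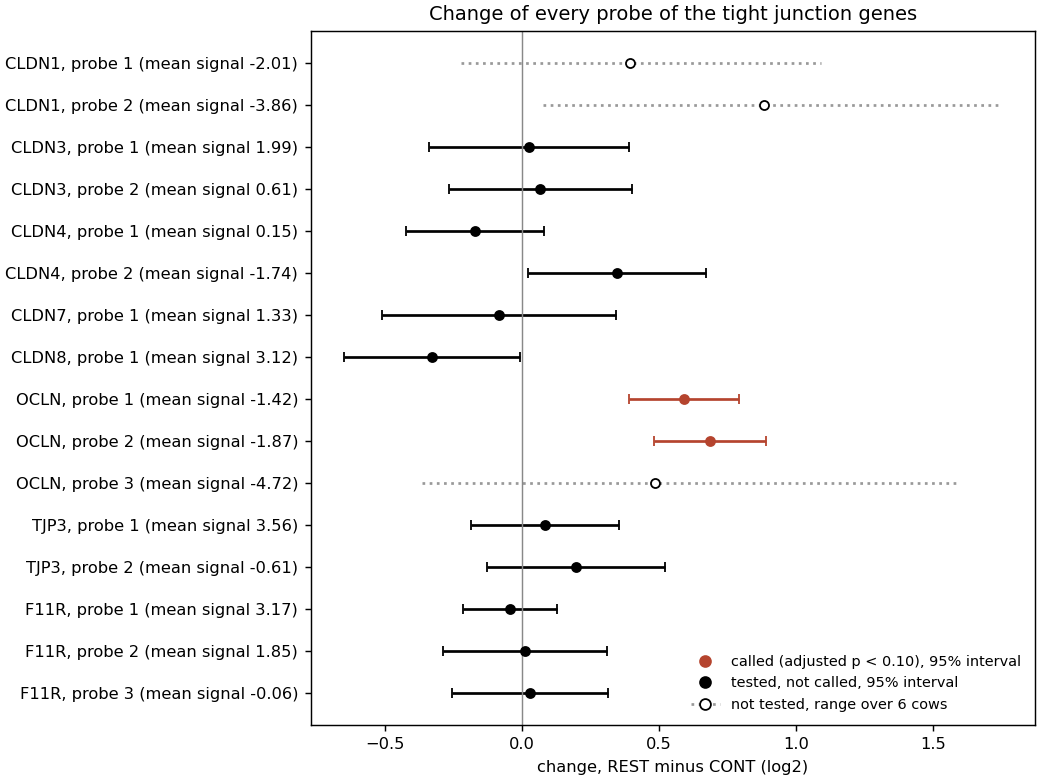
Change (REST minus CONT, log2) of each of the 16 probes of the tight junction genes, numbered within a gene from the brightest. Bars are unadjusted 95% intervals from limma for the 13 tested probes, and dotted lines give the range over 6 cows for the 3 probes that were not tested. The intervals of both tested OCLN probes lie above 0, and the CLDN4 probes lie on either side of 0.

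F11R encodes the immunoglobulin-like adhesion molecule JAM-A. Its brightest probe, the one with the smallest spread of within-cow differences among the members' brightest probes, read 3.19, 3.13, 3.02, 3.28, 3.17 and 3.34 in CONT and 3.29, 3.01, 2.97, 3.09, 3.10 and 3.39 in REST. On this probe no cow differed by more than 0.19 in either direction. The change was -0.05 ± 0.08 (SE; limma adjusted p = 0.733), and its 95% interval of -0.22 to 0.13 was the narrowest of the 13 tested probes. The other F11R probes had changes of 0.01 and 0.03, but their within-cow differences ran from -0.37 to 0.65 and from -0.40 to 0.47. The brightest probe did not follow them across arrays (r = -0.03 and 0.18, group means kept).

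TJP3 encodes ZO-3, a cytoplasmic scaffold that binds claudins and occludin. Its brighter probe read 3.36, 3.53, 3.51, 3.35, 3.73 and 3.60 in CONT and 3.88, 3.63, 3.65, 3.35, 3.28 and 3.81 in REST. Cow 1 was higher by 0.52 and cow 5 lower by 0.45, with the other cows in between. The change was 0.08 ± 0.12 (SE; limma adjusted p = 0.678; 95% interval -0.18 to 0.35). The dimmer probe was higher in 5 of 6 cows, with a change of 0.20 (adjusted p = 0.400). Within slides 1, 2 and 3 the brighter probe gave 0.31, 0.07 and -0.12.

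The within-cow differences of the members varied between cows. In cow 5, CLDN3, CLDN8, OCLN and TJP3 each had their lowest difference of the 6 cows, while CLDN4 and CLDN7 had their highest. In cow 1, no member was lower in REST. Over the 6 within-cow differences, OCLN ran with CLDN3 (r = 0.87), CLDN1 (r = 0.86) and TJP3 (r = 0.55) and opposite to CLDN7 (r = -0.81), and CLDN3 ran with TJP3 (r = 0.77) and CLDN1 (r = 0.76). Levels gave other values. Over the 12 arrays, with group means removed, the highest correlation between members was 0.68, for CLDN8 and TJP3, and the lowest was -0.72, for CLDN1 and F11R. CLDN4 correlated negatively with both CLDN8 (r = -0.57) and TJP3 (r = -0.59). By level, OCLN had r between -0.22 and 0.25 with the other 7. These are descriptions over few cows, and over arrays that share cows and slides.

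**Figure D3:**
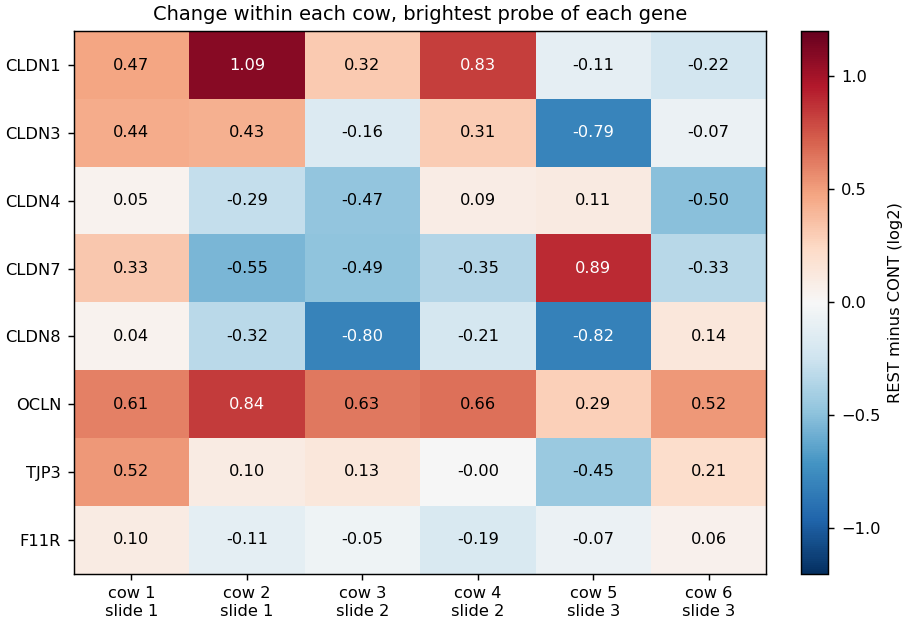
Difference between the REST and the CONT array of each cow (log2) for the brightest probe of 8 tight junction genes, with red for higher and blue for lower in REST. The OCLN row is above 0 in all 6 cows, from 0.29 to 0.84, and cow 5 holds the lowest value of CLDN3 (-0.79) and the highest of CLDN7 (0.89).

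The genes whose signal was most like that of OCLN over the 12 arrays, with group means kept, were NTRK3 (r = 0.88), POLK (r = 0.88) and CYYR1 (r = 0.86), among 7924 other genes. A shared difference between CONT and REST raises such an r, so the changes of these genes can partly follow from their selection. NTRK3, a neurotrophin receptor, had a change of 0.52 (limma adjusted p = 0.0182) and CYYR1 of 0.41 (adjusted p = 0.0455), both higher in 6 of 6 cows. POLK, a DNA polymerase, had a change of 0.15 and was not called (adjusted p = 0.293).

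In bulk tissue, a difference in the number of cells of a type and a difference in RNA per cell cannot be told apart, so cell type markers were read beside OCLN. Of 8 tested luminal epithelial markers, 5 were higher and 3 lower in REST, with a median change of 0.23. KRT8, KRT7 and KRT18, keratins of luminal cells, were called higher, KRT8 by 0.72 in 6 of 6 cows (limma adjusted p = 0.00891), KRT7 by 0.53 (0.0596) and KRT18 by 0.52 (0.0680). The KRT8 call was lost with no block (adjusted p = 0.133) and with the methods' t-test (0.205), its probes ranged from -0.14 to 0.72, and the KRT7 and KRT18 calls were lost in 8 and 10 of 20 alternatives, among them no block (adjusted p 0.171 and 0.508) and the slide as a block (0.129 and 0.198). LALBA, ELF5 and MUC1, also of luminal cells, had changes of -0.20, -0.05 and -0.22 and were not called, although the second LALBA probe was called lower (-0.23, adjusted p = 0.0971). The summed linear level of the luminal list was 1250 to 1674 in CONT and 1148 to 1470 in REST, relative to the 75th percentile. LALBA alone carried 64.4 to 79.0% of it, and without LALBA the sum was 352 to 454 in CONT and 347 to 462 in REST. Within cows, the OCLN difference exceeded the median luminal difference in 6 of 6 cows, by 0.18 to 0.79, and the KRT8 difference exceeded the OCLN difference in cows 1, 2, 4 and 5. The luminal list itself ran from -0.22 to 0.72, and the part of cell composition in the OCLN result was not tested.

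**Figure D4:**
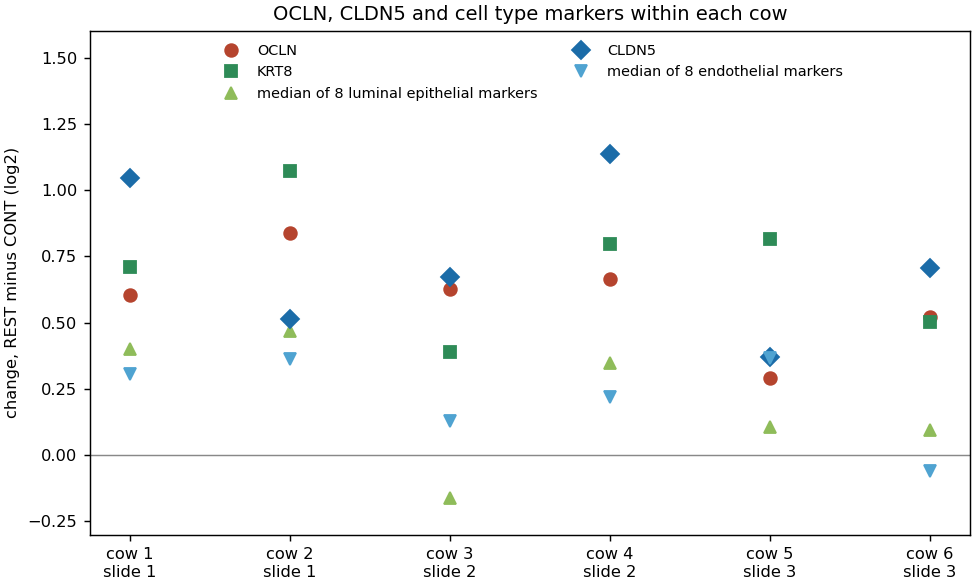
Difference between the REST and the CONT array of each cow (log2) for OCLN, KRT8, CLDN5 and the medians of 8 luminal epithelial and 8 endothelial markers (CLDN5 is itself 1 of the 8 endothelial markers). The OCLN points lie above the luminal median in all 6 cows and above the endothelial median in 5.

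The remaining junction genes were read as 6 lists of 143 genes in all, of which 111 had a probe and 73 were tested. By 1 probe per gene, 11 of 73 (15.1%) were called, 6 higher and 5 lower, beside 16.2% of all tested genes.

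Other claudins and strand proteins counted 29 genes, of which 21 had a probe and 11 were tested. CLDN2, CLDN6, CLDN10, CLDN16, CLDN18 and MARVELD3 were well above background on none of the 12 arrays, and 4 more did not pass the filter. CLDN5 was called higher and CLDN15 lower, and the median change was -0.07. CLDN5, the claudin of blood vessel endothelium, read 2.93, 3.22, 2.80, 2.54, 3.36 and 3.59 in CONT and 3.98, 3.74, 3.48, 3.68, 3.73 and 4.29 in REST. It was higher in 6 of 6 cows, by 0.74 ± 0.11 (SE; limma adjusted p = 0.0115), with 2 of 3 tested probes called, and the call held in each of the 20 alternatives run. Of the 8 tested endothelial markers, 7 were higher and 1 lower in REST, and VWF, von Willebrand factor, was called higher beside CLDN5, by 0.54 with 4 of 4 probes. The summed level of that list was 18.7 to 29.7 in CONT and 27.7 to 37.0 in REST, with CLDN5 carrying 31.4 to 53.2% of the sum over tested genes. Without CLDN5 that sum was 12.7 to 17.5 in CONT and 14.8 to 17.8 in REST, higher in REST in 5 of 6 cows, and the median change of the remaining 7 genes was 0.12. The part of endothelial content in the CLDN5 result was not tested. CLDN15, known as a sodium pore of the intestine, was lower in 6 of 6 cows, by -0.57 ± 0.15 (SE; adjusted p = 0.0504). Its call was lost without cow 2 (adjusted p = 0.146) and without cow 4 (0.135), with the slide as a block (0.134), without a block (0.260), without the filter on dim probes (0.161) and with the methods' t-test (0.347). With normexp correction CLDN15 was still called, at -0.34 with the 75th percentile shift and -0.33 with quantile normalization.

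Of 39 scaffold, plaque and polarity genes, 26 had a probe and 21 were tested, 9 higher and 12 lower in REST with a median change of -0.04. Only F2RL1 was called in this list. It encodes a protease-activated receptor and was lower in 6 of 6 cows, by -0.54 (limma adjusted p = 0.0498), a call lost in 6 of 20 alternatives: without cow 1, 2 or 4 (adjusted p 0.124, 0.146 and 0.138), with no block (0.182), without the filter (0.160) and with the methods' t-test (0.244). The F2RL1 change was -0.44 with normexp correction and the 75th percentile shift and -0.28 with normexp correction and quantile normalization, both called. The scaffold CGN, cingulin, had the largest positive change of the list, 0.39, and was not called (adjusted p = 0.129).

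Below the tight junction belt, 9 of 16 adherens junction and nectin genes were tested. CTNNA1, alpha-catenin, and JUP, plakoglobin, were called higher and the LIM protein AJUBA lower. CTNNA1 changed by 0.31 in 6 of 6 cows (limma adjusted p = 0.0479), with 1 of 4 tested probes called, and was not called without cow 1, 2 or 4 (adjusted p up to 0.144), without slide 3 (0.110) or without the filter (0.160). JUP changed by 0.45 (adjusted p = 0.0974) and AJUBA by -0.30 (adjusted p = 0.0963). Both lay near the threshold and lost the call in most alternatives, JUP in 11 of 20 and AJUBA in 13 of 20, and AJUBA had a second probe at 0.23. The desmosome list had 7 tested genes of 14, all 7 higher in REST by 1 probe per gene, with a median of 0.11. Over all tested genes, 48.4% were higher in REST. The 5 tested probes of DSP ran from -0.15 to 0.38, and PKP1 and PKP4 had changes of 0.03 and 0.05. PKP2 passed the filter through REST, where its signal was higher. Of the 7 genes DSG2, a desmosomal cadherin, was called, at 0.33 in 6 of 6 cows (adjusted p = 0.0575). The call was lost without cow 1, 2, 4 or 6 (adjusted p up to 0.165), with no block (0.108) and without the filter (0.172). PERP, next in size, had 0.29 (adjusted p = 0.157).

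Of 14 gap junction genes 6 were tested, 1 higher and 5 lower, with a median of -0.17, and GJB2 alone was called. GJB2 encodes connexin 26, a gap junction protein of mammary luminal cells. It read 0.43, -0.50, -0.43, 0.04, 0.69 and -0.20 in CONT and -0.47, -0.90, -0.40, -0.83, -0.27 and -1.12 in REST, lower in 5 cows and nearly level in cow 3. The change was -0.67 ± 0.14 (SE; limma adjusted p = 0.0300) and was called with each cow left out in turn, but not with the slide as a block in place of the cow (adjusted p = 0.114), with no block (0.129), without the filter on dim probes (0.132) or with the methods' t-test (0.195). GJA1, another connexin, had 0.24 (adjusted p = 0.239).

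Transcription factors and signals known to act on epithelial junction genes counted 19 tested of 31, 10 higher and 9 lower, with a median change of 0.00. KLF4, a zinc finger factor of differentiating epithelia, read -0.32, -0.61, -0.74, -0.73, -0.42 and -0.67 in CONT and 0.13, -0.16, 0.05, -0.10, 0.00 and -0.01 in REST. Its groups did not overlap, and the change of 0.57 ± 0.08 (SE; limma adjusted p = 0.00948) was called in each of the 20 alternatives run. TWIST1, a repressor of E-cadherin, changed by 0.83 (adjusted p = 0.0455) in 5 of 6 cows. Its CONT signal was above the background call in 4 of 6 cows, so it passed the filter through REST, and was not called without cow 2 or 4 (adjusted p 0.115 and 0.129) or with normexp correction and the 75th percentile shift (0.22, adjusted p = 0.247). The call was lost as well without the filter (adjusted p = 0.154), with the methods' t-test (0.109) and without slide 3 (0.122). ESRP2, an epithelial splicing regulator, changed by -0.37 (adjusted p = 0.0907), a call lost in 11 of 20 alternatives, among them the omission of cow 2, 3, 4 or 5 (adjusted p up to 0.231), no block (0.174) and the slide as a block (0.1002). GRHL1 and KLF5, both epithelial factors, had changes of 0.29 and -0.58 and were not called (adjusted p 0.201 and 0.138), and PRLR, the prolactin receptor, had -0.22 (adjusted p = 0.216).

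**Figure D5:**
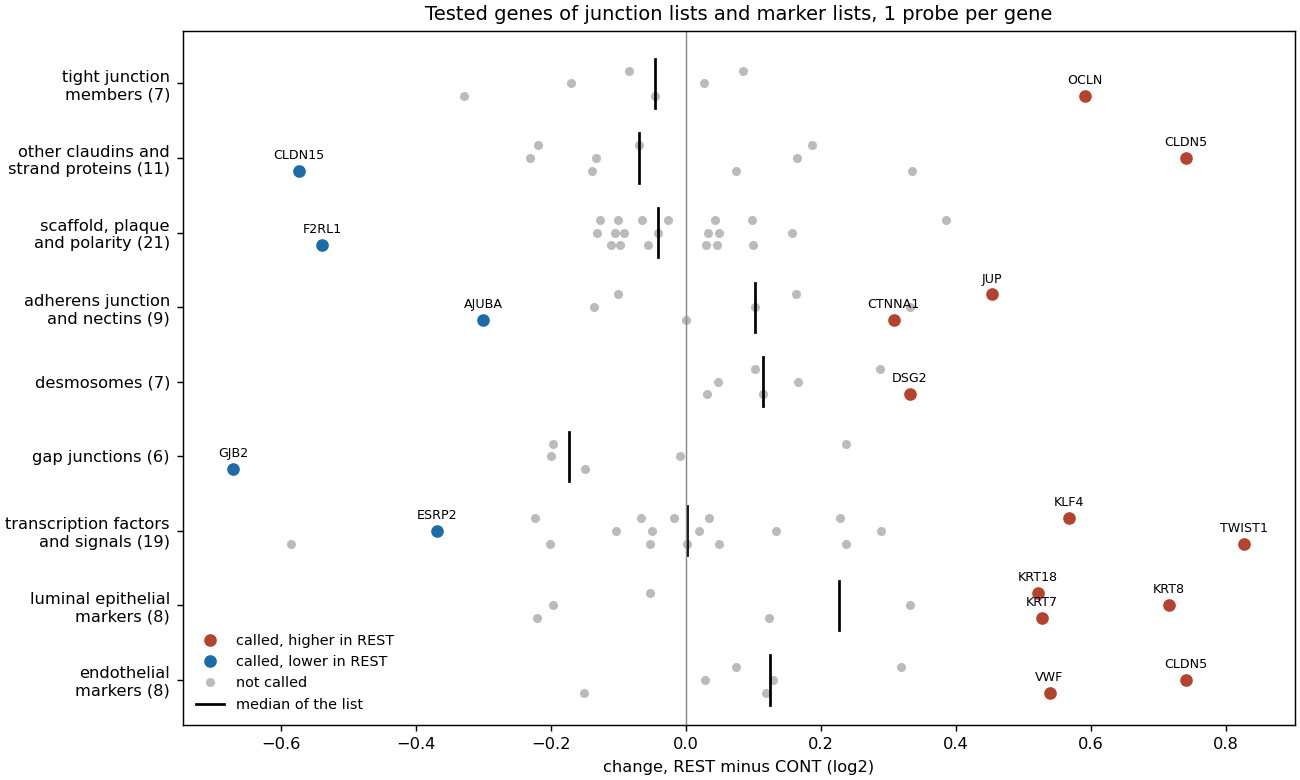
Change (REST minus CONT, log2) of each tested gene in the tight junction set, the 6 other junction lists and 2 marker lists, by 1 probe per gene, with the number tested in brackets. Called genes are named and coloured (red higher, blue lower), grey points were not called, and black bars are medians, from -0.17 for gap junctions to 0.23 for luminal epithelial markers.

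Of the other markers, 6 fibroblast genes, 2 higher and 4 lower, had changes from -0.54 to 0.32 with a median of -0.36 and adjusted p between 0.125 and 0.368 (limma). The collagen genes COL1A1 and COL3A1 had -0.54 and -0.48, and 1 of 3 tested COL1A1 probes was called. Among 8 myoepithelial genes, KRT17 was called higher (0.44) and CNN1 (-0.53) and ACTA2 (-0.38) lower, calls lost in 8, 5 and 13 of 20 alternatives. Among 7 leukocyte genes, CD3E was called higher (0.35), a call lost in 10 of 20, and CSF1R was not (0.27, adjusted p = 0.174). CIDEA, listed with adipocyte markers and also expressed by mammary epithelium, was called lower (-0.27), but not in 13 of 20 alternatives, among them the omission of cow 1, 2, 3, 4 or 6 and the cow as a random block (adjusted p = 0.598), and PLIN1, a defining adipocyte gene, was well above background on no array. CKM, a skeletal muscle gene, was called lower (-0.36), a call lost in 9 of 20, while ACTA1 (0.02) was not called, and HBA was not called (-0.33).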

How the data were processed

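The authors hybridised 1 array per biopsy and extracted spots with Agilent Feature Extraction 11 (submitters' processing notes). The deposited files hold processed signal, a background-subtracted, detrended intensity on a linear scale, and raw median intensities. The deposited series table held the same processed intensity in all 45220 cells of 12 arrays. Symbols came from RefSeq identifiers, for 27131 of 43653 probes (62.2%). Positions and probe sequences are not given here.

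Processed signal was log2-transformed, repeat spots were averaged, spots marked as outliers were left out, and the 75th percentile of each array was subtracted. Probes entered the test if the scanner software called them well above background on all arrays of CONT, of REST or of both. REST and CONT were compared in limma 3.58.1 (lmFit, eBayes) in R 4.3.3, two-sided, with the cow as a fixed block. The pairing came from the animal named in the labels. Within-group deviations of the arrays of 1 cow correlated at 0.356 to 0.574, and those of different cows at -0.326 to 0.135. The study's methods name no pairing. The brightest tested probe stood for a gene.

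The alternatives were other normalizations and filters, no block, the cow as a random block, the slide as a block, the methods' t-test, each cow left out (the series description counts 5 cows, the labels 6) and, chosen after seeing the data, slide 3 left out and the second probes of OCLN and CLDN4. The deposited series table was also counted among the alternatives. It holds the same intensities, so it repeated the main result by construction. Normexp (offset 50) used median foreground and background signals. Members and lists were chosen with earlier results of these data known. All members were named, and of each other list at most 6 called genes by size of change, or the largest 2 where fewer than 2 were called. GRHL1, KLF5, PRLR, LALBA, ELF5 and MUC1 were named after their values were seen. The fit was also run on simulated data, and the outcome is not given here. Python 3.11.15, pandas 2.3.3 and matplotlib 3.10.9 read and drew the values. The number of arrays limits precision.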

Additional observations from a re-analysis of the deposited data

Results flagged for a closer look

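In the CONT group, TWIST1 read -2.03 in cow 3, against -2.65 to -2.54 in the other 5 cows. The gap to the nearest cow was 0.827 of the range of the group, above Dixon's critical value for 6 samples at the 95% level. Cow 3 was also the cow in which TWIST1 did not differ between CONT and REST. Chance marks about 1 in 20 groups in this way, and 1 of 54 groups examined was marked, where 2.7 would be by chance.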

How the results depend on the processing

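The count of 1 tight junction gene called became 0 without the cow as a block, with normexp correction and the 75th percentile shift, with the methods' t-test, and when probes had to be well above background on all 12 arrays, where OCLN was not tested (members with an unadjusted p under 0.05 numbered 1, 0, 1 and 1 in these, against 2 of 7 in the reported limma fit). It remained 1 with each cow left out (1 to 1), without slide 3, and in the other alternatives run. Probes called over the whole array numbered 3105, against 837 without the block, 1899 with the slide as a block, 388 with no filter, 723 with the methods' t-test and 1044 to 3292 with 1 cow left out. Genes called in the other lists numbered 21 of 110, against 5, 8, 4 and 5 in these alternatives and 5 to 19 with 1 cow left out. For OCLN the adjusted p was 0.187 without the block and 0.256 with the methods' t-test, and its second probe had 0.110 and 0.173. With normexp correction and the 75th percentile shift the second probe changed by 0.13 (adjusted p = 0.325). Some members that were not called turned sign: CLDN3 to -0.057, -0.054 and -0.030 without cows 1, 2 and 4, CLDN4 to 0.089 as the mean of its probes, CLDN7 to 0.0016 with normexp correction and the 75th percentile shift and to 0.0092 without cow 2, TJP3 to -0.0023 without cow 1, and F11R to 0.047 with normexp correction and the 75th percentile shift. With 1 cow left out, CLDN3 lay between -0.057 and 0.189, CLDN7 between -0.279 and 0.0092, and TJP3 between -0.0023 and 0.191. CLDN4 then lay between -0.226 and -0.104 and F11R between -0.074 and -0.017, without a change of sign. Within slide 3 alone, CLDN3 was -0.43, CLDN7 0.28 and TJP3 -0.12, each opposite in sign to the value over all cows. For CLDN7 and TJP3 that sign was the sign of cow 5 (0.89 and -0.45), as cow 6 went the other way (-0.33 and 0.21). No scaling moved the median change of all tested probes by more than 0.1. Of 222 member values under alternatives, 204 kept their direction and side of the threshold (or, untested, moved by less than 1 SD), and of 419 values of other named genes, 273 did and 146 lost the call with the same direction. Except where an alternative drops probes or samples, the cause was not tested. On slide 3 fewer probes stood above background, which limits CLDN1 and OCLN.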
